A study of Mus musculus with 8 samples.

Results

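The genes described here are 10 genes by which T cells and natural killer (NK) cells are recognised: Cd3d, Cd3e, Cd3g, Cd4, Cd8a, Lck, Nkg7, Klrd1, Ncr1 and Gzma. They are known genes of these cells, named with earlier results of these data known, and each symbol was found once among the 22059 genes listed for every sample. All 10 passed the filter on low counts that left 17081 genes for testing. The samples were 8 whole livers of FVB mice (an inbred strain; FVB/NJ in the study), with 2 samples at each of 4 stages, namely E18 (day 18 of embryonic life), P14 and P28 (days 14 and 28 after birth) and adult at 3 months. Poly(A)-selected RNA was sequenced as pairs of 100 bp reads. The labels give no transgene, deletion, treatment or cell sorting, so every value is a level in the RNA of the whole organ. The study calls the samples of a stage biological duplicates, but litter, batch and pooling are not given, so the p-values measure only the spread between these samples.

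T cells recognise antigen through a receptor whose signal is carried by the CD3 chains, with CD4 or CD8 binding the presenting molecule and the kinase LCK starting the signal inside the cell. NK cells carry no such receptor and instead read a balance of activating and inhibitory surface receptors, and both NK cells and cytotoxic T cells kill through granules loaded with granzymes. The fetal liver is a blood-forming organ, whereas the adult liver holds resident NK cells, T cells and Kupffer cells beside its hepatocytes.

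The libraries held 68154675 to 106055723 reads on genes. The members lay low in this range, with 1 to 1281 reads per sample, so counting error weighs on the weakest of them. Levels are given as reads, as counts per 1000000 reads scaled by the TMM method of edgeR (CPM) for comparisons of 1 gene between samples, and as the deposited RPKM, which are per length, for comparisons between genes. TMM gave the E18 libraries factors of 1.598 and 1.539 and the later libraries 0.847 to 0.888. With library size alone in place of TMM, the median log2 fold change of all genes moved from -0.03 to -0.90 from E18 to P14 and from -0.11 to -0.95 from E18 to the adult, so counts that involve E18 are given on both scalings where they differ. A gene was called higher or lower when its edgeR adjusted p was below 0.1 and its change was over 3-fold. Hepatocyte genes such as Alb and Apoa1 were abundant in all 8 samples, as the label liver requires. In whole organs, fewer cells of a type and less RNA per cell cannot be told apart.

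The 10 genes fell into 3 courses. Cd3d, Cd3e, Cd3g, Cd8a, Klrd1, Ncr1 and Gzma had their highest level at P14. Lck and Nkg7 were highest at E18 and lower at each later stage. Cd4 was lowest at E18 and highest in the adult.

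**Figure D1:**
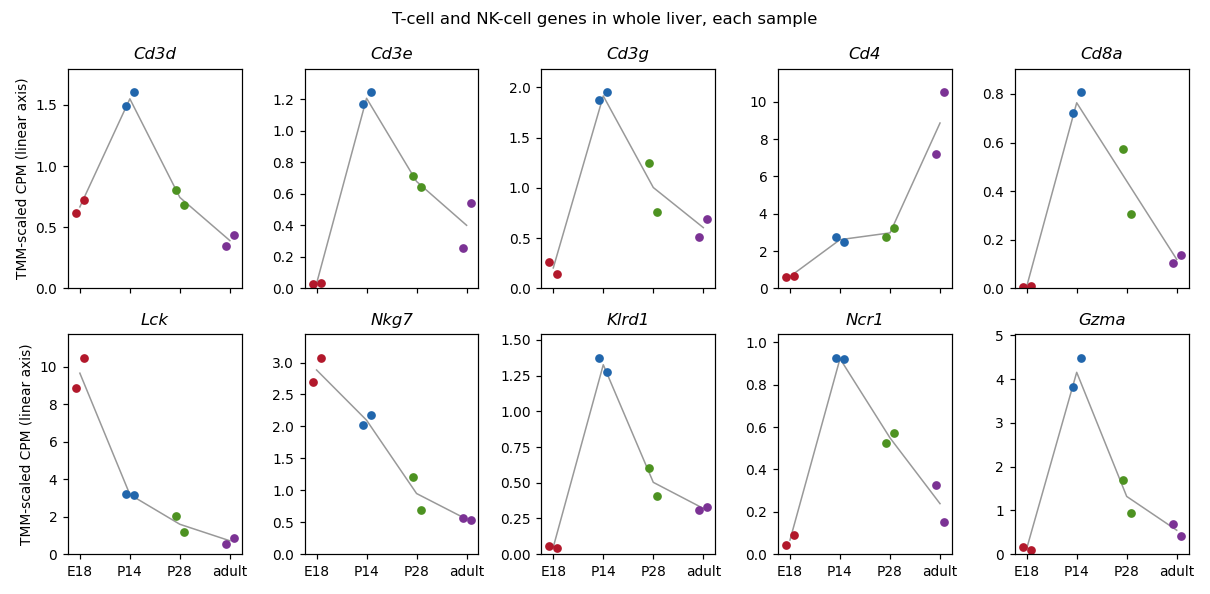
TMM-scaled counts per 1000000 reads (CPM; vertical axis, linear, from 0) of each of the 10 genes in each sample at the 4 stages; each point is 1 sample and the line joins the means of the 2 samples. Both P14 samples lie above all others for 7 genes, both E18 samples lie above all others for Lck and Nkg7, and both adult samples lie above all others for Cd4.

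Cd3e, Cd3g and Cd3d encode the epsilon, gamma and delta chains of the CD3 complex. The 3 genes lie side by side on mouse chromosome 9, with Cd3g at chr9:44969572-44980431 (minus strand), Cd3d at chr9:44981786-44987339 (plus strand) and Cd3e at chr9:44998740-45009627 (minus strand) in the GRCm38 annotation, which locates the genes only, since the counts were made on another build (mm9). Cd3g and Cd3d point away from each other, with 1355 bases between them. Cd3e shares 135 exonic bases with an annotated antisense gene, Gm48719, and whether counting used strand is not stated, so reads of the pair cannot be told apart.

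Cd3e had 4 and 4 reads in the E18 samples, 107 and 111 in those of P14, 57 and 46 in those of P28, and 15 and 36 in the adults. In CPM this was 0.0308 ± 0.00273 (SD, n = 2) before birth and 1.21 ± 0.0552, 0.678 ± 0.0490 and 0.4 ± 0.201 at the 3 later stages, and no neighbouring stages overlapped. Cd3e rose 37.7-fold from E18 to P14 (log2 fold change 5.24 ± 0.43, SE, edgeR adjusted p = 5.05e-06) and was 12.7-fold higher in the adult than at E18 (log2 fold change 3.66 ± 0.48, SE, edgeR adjusted p = 8.65e-05). Its decline from P14 to the adult stayed just under the 3-fold threshold, at 2.98-fold (log2 fold change -1.57 ± 0.33, SE, edgeR adjusted p = 0.00364). Without P14 replicate 1 or without adult replicate 2 that decline was past the threshold, at log2 fold changes of -1.62 and -2.23.

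Cd3g followed the same course from a higher start, with 36 and 18 reads in the E18 samples, 172 and 174 in those of P14, 100 and 54 in those of P28, and 30 and 46 in the adults. It rose 9.28-fold from E18 to P14 (log2 fold change 3.21 ± 0.35, SE, edgeR adjusted p = 3.14e-05) and fell 3.15-fold from P14 to the adult (log2 fold change -1.66 ± 0.33, SE, edgeR adjusted p = 0.00267), a call that was lost without adult replicate 1 (log2 fold change -1.47). From E18 to the adult the difference was 2.95-fold (log2 fold change 1.56 ± 0.38, SE, edgeR adjusted p = 0.00396), under the 3-fold threshold. Leaving out E18 replicate 1 took it to 2.03 on the log2 scale and leaving out adult replicate 1 to 1.76, both past the threshold.

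Cd3d stood apart from its neighbours by its E18 level. It had 85 and 88 reads in the E18 samples, 137 and 143 in those of P14, 64 and 49 in those of P28, and 20 and 29 in the adults, so that its E18 samples lay above its adult samples, whereas E18 was the lowest stage for both other chains. Its change from E18 to P14 was 2.33-fold (log2 fold change 1.22 ± 0.22, SE, edgeR adjusted p = 9.74e-04), which passed the false discovery rate but not the 3-fold threshold. Between E18 and the adult it differed by 1.69-fold, lower in the adult (log2 fold change -0.76 ± 0.26, SE, edgeR adjusted p = 0.0219), also under that threshold, but with library size alone this was called, at -1.60. Cd3d fell 3.94-fold from P14 to the adult (log2 fold change -1.98 ± 0.25, SE, edgeR adjusted p = 1.95e-04). The order of the middle stages depended on the scale: in CPM the P28 and E18 samples overlapped, whereas in RPKM the E18 samples (0.683 and 0.783) lay above the P28 samples (0.411 and 0.470).

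The difference between the chains shows within single libraries, where no scaling enters. For every Cd3d read there were 0.0463 ± 0.00113 Cd3e reads (SD, n = 2) at E18, against 0.779 ± 0.00339, 0.915 ± 0.0340 and 0.996 ± 0.347 at P14, P28 and adult. The 2 genes were thus near parity after birth and far from it before. The E18 value rests on 4 Cd3e reads in each library (exact 95% counting interval 1.09 to 10.2 reads), which its SD does not cover. All 6 postnatal libraries lay above both E18 libraries, and no test was run on this ratio.

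Cd4 and Cd8a encode the coreceptors of helper and cytotoxic T cells. Cd4 lies at chr6:124864692-124888221 (minus strand) and Cd8a at chr6:71373427-71379173 (plus strand) in GRCm38. Cd8a was the scarcest member, with 1 and 1 reads in the E18 samples, 66 and 72 in those of P14, 46 and 22 in those of P28, and 6 and 9 in the adults. The E18 level therefore rests on 2 reads in all, and the ratio of the summed counts scaled to the libraries was 99.7 (95% counting interval 27.1 to 831) from E18 to P14 and 15.7 (95% counting interval 3.66 to 142) from E18 to the adult; the intervals cover counting error only. Both changes were called higher (edgeR adjusted p = 6.94e-06 and 0.00123). From its peak Cd8a fell 6.30-fold to the adult (log2 fold change -2.65 ± 0.42, SE, edgeR adjusted p = 6.65e-04), with a 3.67-fold fall between P28 and adult (log2 fold change -1.87 ± 0.44, SE, edgeR adjusted p = 0.0226). The latter call was lost without P28 replicate 1 and without adult replicate 1, with edgeR adjusted p = 0.162 and 0.125.

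Cd4 ran the other way late in development, with 82 and 83 reads in the E18 samples, 252 and 220 in those of P14, 218 and 230 in those of P28, and 419 and 698 in the adults. In CPM it stood at 0.635 ± 0.0618 (SD, n = 2), 2.61 ± 0.199, 2.97 ± 0.347 and 8.86 ± 2.34 at the 4 stages in order of age, and only the P14 and P28 samples overlapped. Cd4 rose 4.11-fold from E18 to P14 (log2 fold change 2.04 ± 0.22, SE, edgeR adjusted p = 3.32e-05) and a further 3.40-fold from P14 to the adult (log2 fold change 1.76 ± 0.20, SE, edgeR adjusted p = 1.11e-04). The later rise lost its call without adult replicate 2, at a log2 fold change of 1.45, and the earlier one with library size alone, at 1.17. Between P28 and adult the change was 2.99-fold (log2 fold change 1.58 ± 0.20, SE, edgeR adjusted p = 0.00166), just under the 3-fold threshold, and it passed without P28 replicate 2 (1.70) or without adult replicate 1 (1.82).

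At E18 the RPKM of Cd4 was 83.4 times that of Cd8a, a value set by 1 Cd8a read in each sample (exact 95% counting interval 0.0253 to 5.57 reads). Later it was 3.48 ± 0.545 times (SD, n = 2) at P14, 7.68 ± 4.09 times at P28 and 74.5 ± 5.52 times in the adult. The 2 coreceptor genes were thus closest at P14. Cd4 is also transcribed in some macrophages and dendritic cells, and its course differed from that of the CD3 genes, but the part of other cells in its level was not tested. Its neighbour Gpr162, 709 bases away in GRCm38, had 95 to 167 reads before the adult stage and 140 and 235 in the adult. These reads are not scaled. The adult libraries were the smallest after TMM, at 58179054 and 66392071 against 79972211 and 71490505 at P28. Gpr162, with 98 and 95 reads at P28, was thus also higher in both adult samples than in both P28 samples. The part of this neighbour in the Cd4 level was not tested.

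Lck, the kinase that phosphorylates the CD3 chains, lies at chr4:129548344-129573641 (minus strand) in GRCm38. It was the most abundant member at E18 and the one that declined most by the adult stage. It had 1227 and 1281 reads in the E18 samples, 293 and 282 in those of P14, 162 and 83 in those of P28, and 33 and 57 in the adults. Its CPM went from 9.65 ± 1.15 (SD, n = 2) to 3.18 ± 0.0230, 1.59 ± 0.611 and 0.713 ± 0.206 from stage to stage, with no overlap between neighbouring stages. Lck fell 13.4-fold from E18 to the adult (log2 fold change -3.75 ± 0.29, SE, edgeR adjusted p = 2.11e-06) and 4.42-fold from P14 to the adult (log2 fold change -2.14 ± 0.29, SE, edgeR adjusted p = 2.66e-04). The first step, from E18 to P14, was 3.03-fold (log2 fold change -1.60 ± 0.24, SE, edgeR adjusted p = 3.00e-04), hardly past the threshold, and the call was lost without E18 replicate 2 (-1.46), without P14 replicate 2 (-1.58) and relative to the median of all genes (-1.57).

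At E18 the RPKM of Lck was 6.15, against 0.733 for Cd3d, 0.292 for Cd3g and 0.0314 for Cd3e, so Lck stood far above each CD3 chain. At P14 the values were 1.119, 0.942, 1.51 and 0.679, and in the adult 0.249, 0.235, 0.473 and 0.224, where Lck lay below Cd3g and close to the other chains. Lck is used by thymocytes, T cells and NK cells, and among the members Nkg7 alone was also highest at E18.

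Klrd1 encodes CD94, the partner of the NKG2 receptors, and Ncr1 encodes NKp46, an activating receptor that defines NK cells and related innate lymphoid cells. Klrd1 lies at chr6:129591782-129598775 and Ncr1 at chr7:4337724-4345164, both on the plus strand in GRCm38. Klrd1 had 8 and 5 reads in the E18 samples, 126 and 114 in those of P14, 48 and 29 in those of P28, and 18 and 22 in the adults. Ncr1 had 6 and 11 reads in the E18 samples, 85 and 82 in those of P14, 42 and 41 in those of P28, and 19 and 10 in the adults. Both genes thus had 5 to 11 reads per sample before birth and their maximum at P14.

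Klrd1 rose 26.0-fold from E18 to P14 (log2 fold change 4.70 ± 0.35, SE, edgeR adjusted p = 2.37e-06) and fell 4.12-fold from P14 to the adult (log2 fold change -2.04 ± 0.30, SE, edgeR adjusted p = 4.24e-04), which left the adult 6.31-fold above E18 (log2 fold change 2.66 ± 0.40, SE, edgeR adjusted p = 2.06e-04). Between P14 and P28 it changed 2.62-fold (log2 fold change -1.39 ± 0.28, SE, edgeR adjusted p = 0.00340), under the 3-fold threshold unless P28 replicate 1 was left out (-1.71 on the log2 scale). Ncr1 rose 13.8-fold from E18 to P14 (log2 fold change 3.79 ± 0.43, SE, edgeR adjusted p = 4.12e-05) and fell 3.91-fold from P14 to the adult (log2 fold change -1.97 ± 0.40, SE, edgeR adjusted p = 0.00282). The fall was not called without adult replicate 2 (-1.51). The adult level of Ncr1 was 3.54-fold above E18 (log2 fold change 1.82 ± 0.50, SE, edgeR adjusted p = 0.00814), but this call was lost without E18 replicate 1 (1.37), without adult replicate 1 (1.19) and with library size alone (0.98), and on the RPKM scale the 2 stages overlapped. From P28 to the adult Ncr1 was called lower when adult replicate 1 was left out (-1.86).

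Nkg7 and Gzma encode a membrane protein of cytotoxic granules and the protease granzyme A. Gzma lies at chr13:113093825-113100981 (minus strand) and Nkg7 at chr7:43437073-43438249 (plus strand) in GRCm38. Gzma had 23 and 11 reads in the E18 samples, 351 and 400 in those of P14, 135 and 68 in those of P28, and 40 and 27 in the adults, which made it the member with the highest RPKM at P14, at 3.83. It rose 31.8-fold from E18 to P14 (log2 fold change 4.99 ± 0.40, SE, edgeR adjusted p = 4.02e-06). It then fell 7.65-fold to the adult (log2 fold change -2.93 ± 0.36, SE, edgeR adjusted p = 1.56e-04), the largest fall from P14 among the members, and the adult stayed 4.16-fold above E18 (log2 fold change 2.06 ± 0.45, SE, edgeR adjusted p = 0.00223). With library size alone the last comparison was under the threshold, at 1.21.

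Between P14 and P28 Gzma fell 3.14-fold (log2 fold change -1.65 ± 0.32, SE, edgeR adjusted p = 0.00323). Without P14 replicate 2 or without P28 replicate 2 this call was lost, at -1.54 and -1.30. Nkg7, although a granule gene, did not share the course of Gzma. It had 374 and 376 reads in the E18 samples, 185 and 194 in those of P14, 97 and 49 in those of P28, and 33 and 35 in the adults. Between E18 and P14 it differed by 1.37-fold, lower at P14 (log2 fold change -0.46 ± 0.24, SE, edgeR adjusted p = 0.111), which did not pass the test. Nkg7 fell 3.83-fold from P14 to the adult (log2 fold change -1.94 ± 0.28, SE, edgeR adjusted p = 4.12e-04) and 5.26-fold from E18 to the adult (log2 fold change -2.40 ± 0.28, SE, edgeR adjusted p = 3.56e-05). Between P14 and P28 its log2 fold change passed the threshold without P28 replicate 1 (-1.62), and between P28 and the adult that of Gzma did so without P28 replicate 2 (-1.64) or without adult replicate 1 (-1.70). The coordinates of Nkg7 are 1077 bases from Lim2, which had at most 9 reads in any sample.

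The last 100 bases before the RefSeq start (GRCm38.p6) are shown for 3 members: Ncr1 and Gzma, which shared the P14 peak, and Lck, which had the opposite course from E18 to P14. Capitals mark the letters TGTGGT, the core bound by RUNX factors, or ACCACA, its reverse complement. All 3 held these letters. Cd3d, Cd3e, Cd3g and Cd8a, which also peaked at P14, did not hold them in their listed promoters. The Ncr1 window is chr7:4337615-4337714, plus strand, the Gzma window is chr13:113100982-113101081, minus strand, and the Lck window is chr4:129573642-129573741, minus strand, before the upstream of its 2 listed starts. Counts per gene cannot separate the starts of Lck.

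Ncr1: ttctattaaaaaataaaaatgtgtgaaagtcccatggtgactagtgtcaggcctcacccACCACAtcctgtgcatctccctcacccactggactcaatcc

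Gzma: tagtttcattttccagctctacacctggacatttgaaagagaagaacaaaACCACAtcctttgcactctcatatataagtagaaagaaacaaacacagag

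Lck: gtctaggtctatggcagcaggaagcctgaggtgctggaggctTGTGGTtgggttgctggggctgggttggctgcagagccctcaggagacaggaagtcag

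Promoter windows of 300 bases (250 before and 50 after the start) were listed by RefSeq for 8 of the 10 members, not for Cd4 and Klrd1, and a gene with 2 listed starts was counted if either window matched. TGTGGT stood on either strand in 4 of these 8 (Gzma, Lck, Ncr1 and Nkg7), against 16.8% of all 32851 promoters. GGTGTG, the core of the T-box motif, was found in 2 of 8 (Cd3d and Nkg7), against 19.0%. CCGGAA, an exact form of the site bound by ETS factors, was found in 0 of 8 against 14.9%. TATAAA, an exact form of the TATA box, was found in 0 of 8 against 13.6%. Other forms of these sites were not searched for, so their absence from the promoters is not shown. Among the exact strings searched for, the windows shown held only the RUNX letters, so none of those strings overlapped. Overlap with other forms of the motifs was not looked for. In Ncr1 and Gzma the RUNX letters belonged to a longer shared run, ACCACATCCT, at 41 and 50 bases before the start, and this run was looked for after the motif matches had been seen. It occurs in 26 of all 32851 promoters (0.0791%), those of Ncr1 and Gzma among them. The run was picked because these 2 genes share it, so this share is a description and tests nothing. The RUNX letters were present both in genes that peaked at P14 and in genes that were highest at E18, so they did not separate the 2 courses. A match in letters is a description of these windows, not a measured site.

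Counted over the members, 7 of 10 were called higher and 1 of 10 lower from E18 to P14, where 13.8% of all tested genes were called higher and 15.4% lower. From E18 to the adult 6 were higher and 2 lower, against 16.8% and 23.8% of all tested genes. With library size alone these counts were 6 higher and 1 lower at P14 and 4 higher and 3 lower in the adult, and those of all tested genes were 1266 higher and 5095 lower at P14 (2353 and 2636 with TMM) and 1653 higher and 6159 lower in the adult (2863 and 4061). Both comparisons use the same E18 samples. From P14 to the adult, a comparison added after the values were seen, 8 members were lower and 1 higher, against 11.1% and 4.35%.

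Single steps after P14 held few calls. Between P14 and P28 Gzma alone was called (lower), against 5.98% of tested genes called lower and 3.61% higher. Between P28 and adult Cd8a alone was called (lower), against 2.24% lower and 0.767% higher. The median log2 fold change over the members was 3.50 from E18 to P14, -0.96 from P14 to P28 and -0.86 from P28 to the adult, beside -0.03, -0.05 and 0 over all genes. All members except Cd4 had a lower fitted value at P28 than at P14, and 8 passed the false discovery rate when no fold threshold was set.

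**Figure D2:**
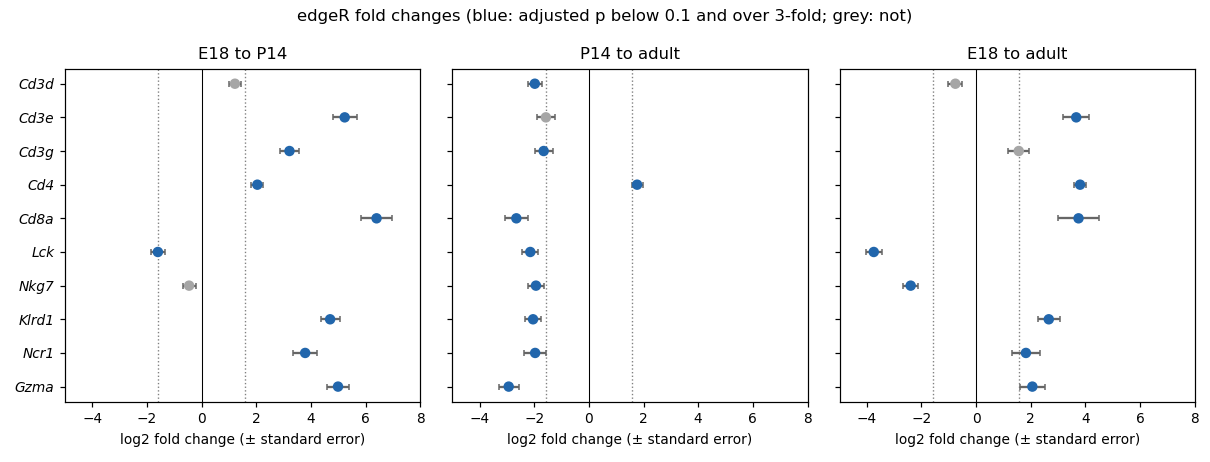
Log2 fold changes with standard errors (horizontal axis) of the 10 genes in 3 comparisons fitted by edgeR over all 8 samples; blue points passed an adjusted p below 0.1 and 3-fold (dotted lines) and grey points did not. From P14 to the adult 8 genes lie to the left of the dotted line and Cd4 lies to the right; Cd8a's values from E18 rest on 2 reads over both E18 samples.

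Ptprc, which encodes CD45 and is carried by nearly all white blood cells, gave a reference within each library. It had 1721 and 1889 reads in the E18 samples, 1167 and 1039 in those of P14, 914 and 598 in those of P28, and 340 and 450 in the adults, with a log2 fold change of -0.19 ± 0.17 (SE, edgeR adjusted p = 0.342) from E18 to P14. The median of the 8 pan-leukocyte genes, Ptprc among them, was -0.86 over the same step, so the percentages below depend on the choice of Ptprc. On the RPKM scale, which has no TMM factor, Ptprc went from 3.59 ± 0.493 (SD, n = 2) to 1.74 ± 0.123, while a ratio of genes within a library does not depend on that factor. Relative to Ptprc, the members diverged between E18 and P14. The RPKM of Gzma was 6.19 ± 3.44% of that of Ptprc at E18 (SD, n = 2), 221 ± 38.4% at P14, then 84.3 ± 15.5% and 57.3 ± 26.3% at the last stages. Klrd1 went from 2.39 ± 0.926% to 71.2 ± 0.810%, then 33.0 ± 1.86% and 33.3 ± 1.87%, so its P28 and adult samples overlapped on this scale. Cd3e went from 0.876 ± 0.0577% to 39.2 ± 4.23%, then 27.5 ± 4.06% and 24.5 ± 10.01%. For Cd3e, too, the P28 and adult samples overlapped.

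Against Ptprc, Lck was lower at each later stage, from 171 ± 6.07% (SD, n = 2) at E18 to 64.4 ± 3.55%, 39.0 ± 6.70% and 27.6 ± 5.16%, so that at E18 it exceeded Ptprc itself. Ptprc had the lowest E18 RPKM of the 8 pan-leukocyte genes, and Lck (6.15) lay below the next of them, Cd53 (6.53). Nkg7 stood at 145 ± 9.003%, 120.3 ± 13.9%, 65.5 ± 11.9% and 60.9 ± 9.50%. Cd4 stood at 8.38 ± 0.480% at E18 and 255 ± 41.3% in the adult. These percentages carry no test.

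**Figure D3:**
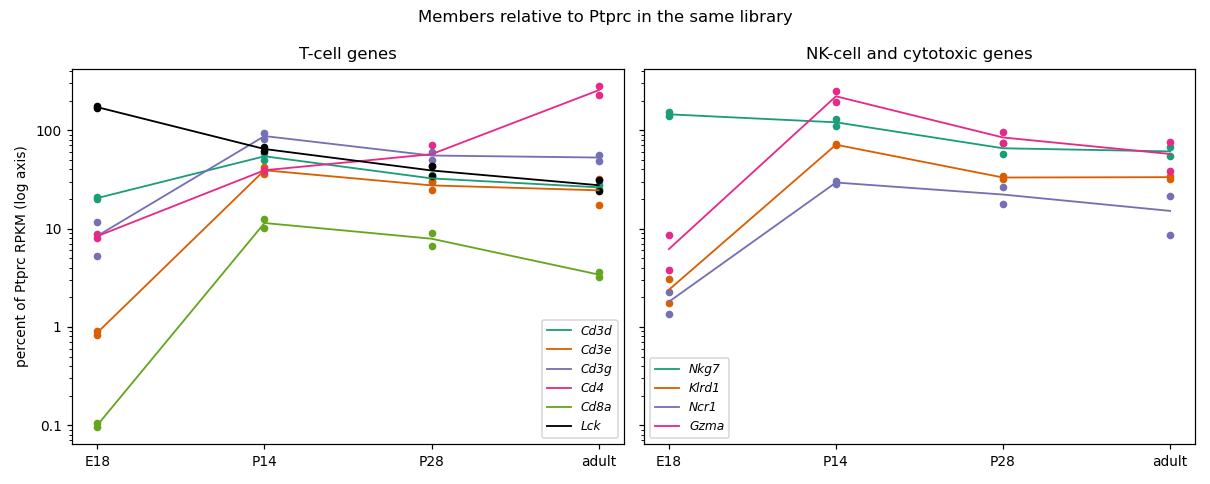
RPKM of each member as a percent of the RPKM of Ptprc in the same library (vertical axis, log scale) at the 4 stages, T-cell genes on the left and NK-cell and cytotoxic genes on the right; points are samples and lines join stage means. Lck and Nkg7 lie above 100% at E18, Nkg7 and Gzma do so at P14 and Cd4 does so in the adult.

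The balance between the T-cell receptor genes and the NK-cell receptors was described by the RPKM sum of the 3 CD3 genes over that of Klrd1 and Ncr1. The ratio was 7.07 ± 0.797 (SD, n = 2) before birth and 1.79 ± 0.137, 2.09 ± 0.161 and 2.24 ± 0.867 at the stages after it. Cd3d carried much of the E18 value: without it the ratio was 2.19 before birth and 1.25, 1.51 and 1.67 after it. Without Cd3d the E18 samples overlapped those of P28 and those of the adult. Klrd1 and Ncr1 had only 5 to 11 reads each per E18 sample. After birth the adult samples were the most spread, from 1.62 to 2.85. That range held both P14 samples (1.70 and 1.89) and both P28 samples (2.21 and 1.98).

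The duplicates of P28 differed in the same direction for most members. There, 8 of the 10 genes were higher in replicate 1 than in replicate 2, with a median ratio of 1.57 in CPM, whereas the median over all genes was 1.01. Ptprc was also higher in that sample, by a ratio of 1.37. In the adult, 3 of 10 members were higher in replicate 1, with a median ratio of 0.774. Most members and Ptprc thus differed in the same direction between the 2 P28 samples. The members' median ratio and that of Ptprc also went together at E18 (0.879 and 0.803) and in the adult (0.774 and 0.862), but not at P14 (0.949 and 1.09). The part of leukocyte content in these differences was not tested.

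Genes that work beside the members were read from further lists, whose counts are given without a test of the list. Of 12 tested genes of the T-cell receptor complex and T-cell surface, 6 rose from E18 to P14 (Cd8b1, Cd2, Cd5, Cd6, Cd7 and Thy1) and the other 6 were not called, beside 13.8% of all genes called higher and 15.4% lower, with a median log2 fold change of 2.03 against -0.03 over all genes. With library size alone 6 were higher and 1 lower, with a median of 1.16 against -0.90. Cd2, an adhesion receptor of T and NK cells, had 2 and 4 reads in the E18 samples, 84 and 74 in those of P14, 52 and 33 in those of P28, and 21 and 30 in the adults. Thy1, a surface protein of mouse T cells, had 81 and 89 reads in the E18 samples, 393 and 489 in those of P14, 221 and 192 in those of P28, and 101 and 187 in the adults, and rose by 2.90 ± 0.26 (SE, edgeR adjusted p = 8.40e-06) on the log2 scale. Cd7, another lymphocyte surface protein, changed by 3.34 ± 0.29 (SE, edgeR adjusted p = 6.65e-06) to P14 and -2.37 ± 0.29 (SE, edgeR adjusted p = 1.38e-04) from P14 to the adult. Cd8b1, the partner of Cd8a, had 0 and 1 reads at E18 and 34 and 10 at P14. Cd247, the zeta chain of the receptor, did not share the rise: it had 1098 and 891 reads in the E18 samples, 347 and 412 in those of P14, 406 and 300 in those of P28, and 243 and 384 in the adults, a log2 fold change of -0.85 ± 0.19 (SE, edgeR adjusted p = 0.00268) from E18 to P14, which was called lower with library size alone (-1.72).

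The list of T-cell receptor signalling genes was split. From E18 to the adult 3 of 15 tested genes rose (Zap70, Txk and Sh2d1a) and 8 fell (Lat, Lcp2, Fyb, Prkcq, Ubash3a, Grap2, Ptpn22 and Fyn), beside 16.8% and 23.8% of all genes, with a median of -2.03 against -0.11 over all genes (2 higher, 8 lower and a median of -2.87 with library size alone, where Txk was not called). Grap2, an adaptor that is also used by megakaryocytes and other blood cells, had 6880 and 4301 reads in the E18 samples, 76 and 83 in those of P14, 46 and 14 in those of P28, and 5 and 15 in the adults. Ubash3a, a negative regulator of the receptor signal, had 2477 and 2198 reads in the E18 samples, 33 and 35 in those of P14, 10 and 6 in those of P28, and 5 and 7 in the adults. Lat, the membrane adaptor of the receptor, fell by 3.37 ± 0.22 (SE, edgeR adjusted p = 7.79e-07) on the log2 scale, and Fyn, a relative of Lck, fell by 2.25 ± 0.10 (SE, edgeR adjusted p = 4.44e-08). Like Lck, these genes were highest at E18, whereas the CD3 genes were highest at P14.

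Zap70, the kinase that binds the phosphorylated CD3 chains after LCK has acted, took the opposite course. It had 12 and 10 reads in the E18 samples, 161 and 297 in those of P14, 663 and 656 in those of P28, and 1025 and 753 in the adults, and rose by 7.40 ± 0.42 (SE, edgeR adjusted p = 2.84e-07) on the log2 scale from E18 to the adult and by 2.51 ± 0.30 (SE, edgeR adjusted p = 1.31e-04) from P14 to the adult, where 8 of the members fell. In the adult the RPKM of Zap70 was 5.29, against 0.932 for the sum of the 3 CD3 genes and 0.249 for Lck. The part of other cells in the level of Zap70 was not tested. Sla2, the most abundant gene of the list by RPKM, changed by 0.58 ± 0.10 (SE, edgeR adjusted p = 7.07e-04) from E18 to the adult, under the 3-fold threshold, and its direction depended on the scaling, at -0.27 with library size alone and with an RPKM of 36.9 at E18 and 30.1 in the adult.

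Of 18 tested transcription factors of T and NK cells, 8 rose and 6 fell from E18 to the adult, beside 16.8% and 23.8% of all genes, with a median of 0.51 against -0.11, which became 3 higher, 7 lower and -0.34 with library size alone. Tbx21, which encodes T-bet of NK and helper T cells and was named after its values were seen, had 8 and 12 reads in the E18 samples, 87 and 86 in those of P14, 76 and 34 in those of P28, and 17 and 18 in the adults. Its mean was highest at P14, as for Klrd1 and Ncr1, but P14 and P28 were not separated by the test (log2 fold change -0.42 ± 0.35, SE, edgeR adjusted p = 0.357). Runx3, a RUNX factor of cytotoxic lymphocytes and of other blood cells, fell by 3.92 ± 0.32 (SE, edgeR adjusted p = 3.21e-06) on the log2 scale. Id2, which hepatocytes also transcribe, rose by 2.44 ± 0.16 (SE, edgeR adjusted p = 6.35e-07) on the log2 scale and had a far higher RPKM in the adult (132) than any member.

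Of the further NK-cell receptors and adaptors, 10 of 25 listed genes were not tested, mostly Klra and Klrc genes with few reads, and these belong to families of near copies between which reads may be split. Of the 15 tested, 6 rose from E18 to P14 (Klrb1c, Klre1, Klrg1, Klrk1, Il2rb and Tnfsf10) and 3 fell (Cd226, Il18rap and Itga2), beside 13.8% and 15.4% of all genes, with a median of 0.85 against -0.03 that became -0.02, with 4 higher and 3 lower, under library size alone, where Klrb1c and Klrg1 were not called. Tnfsf10, the death ligand TRAIL, had 89 and 81 reads in the E18 samples, 297 and 446 in those of P14, 932 and 853 in those of P28, and 726 and 627 in the adults. Itga2, an integrin of NK cells and of platelets, had 239 and 97 reads in the E18 samples, 11 and 7 in those of P14, 17 and 7 in those of P28, and 0 and 6 in the adults. Hcst, the adaptor DAP10, had 105 and 114 reads in the E18 samples, 75 and 69 in those of P14, 49 and 36 in those of P28, and 20 and 13 in the adults and fell by 1.65 ± 0.32 (SE, edgeR adjusted p = 0.00114) on the log2 scale from E18 to the adult, and Itga1, an integrin of liver-resident NK cells and of endothelium, changed by 1.53 ± 0.17 (SE, edgeR adjusted p = 3.45e-05) from E18 to P14, just under the threshold.

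Among 13 tested granule and effector genes, 7 rose from E18 to P14 (Gzmb, Prf1, Ctsw, Fasl, Xcl1, Ccl5 and Serpinb9) and 2 fell (Srgn and Unc13d), beside 13.8% and 15.4% of all genes, with a median of 1.66 against -0.03 (6 higher, 4 lower and 0.79 with library size alone, where Serpinb9 was not called). Xcl1, a chemokine of NK cells, had 0 and 2 reads in the E18 samples, 46 and 91 in those of P14, 31 and 31 in those of P28, and 12 and 14 in the adults. Srgn, the proteoglycan of secretory granules in many blood cells, had 3484 and 3368 reads in the E18 samples, 687 and 824 in those of P14, 601 and 546 in those of P28, and 343 and 429 in the adults, and Unc13d, a priming factor of granule release, had 5602 and 4343 reads in the E18 samples, 198 and 230 in those of P14, 121 and 100 in those of P28, and 66 and 68 in the adults. Srgn and Unc13d, which myeloid cells share, were highest at E18, as was Nkg7. Gzmb, a second granzyme and named here after its values were seen, had 27 and 30 reads in the E18 samples, 212 and 331 in those of P14, 136 and 51 in those of P28, and 34 and 24 in the adults, the course of Gzma.

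Of 15 homing genes, 6 rose and 2 fell from E18 to P14, beside 13.8% and 15.4% of all genes, so the share that fell was near that of all genes. Their median was 0.41 against -0.03, a value that turned to -0.46, with 3 higher and 2 lower, under library size alone. S1pr1, which lymphocytes need to leave tissues and which endothelium also carries, rose by 2.42 ± 0.16 (SE, edgeR adjusted p = 9.48e-07) on the log2 scale. S1pr5, its counterpart in NK cells, had 80 and 100 reads in the E18 samples, 1070 and 1528 in those of P14, 2684 and 2850 in those of P28, and 2870 and 2548 in the adults. In the adult the RPKM of S1pr5 was 14.0, against 0.130 for Ncr1 and 0.296 for Klrd1. S1pr5 rose from P14 to the adult (log2 fold change 1.61 ± 0.21, SE, edgeR adjusted p = 2.27e-04), where Ncr1 and Klrd1 fell. The part of other cells in the level of S1pr5 was not tested. Cxcr4, the receptor that holds blood-forming cells in their niche, had 1510 and 1492 reads in the E18 samples, 302 and 316 in those of P14, 59 and 58 in those of P28, and 38 and 72 in the adults. Of 21 ligands and cytokines that act on T and NK cells, 8 rose and 3 fell from E18 to P14, beside the same shares of all genes, with a median of 0.94 (4 higher, 4 lower and 0.07 with library size alone). Cd1d1, which presents lipids to NKT cells, rose by 4.70 ± 0.15 (SE, edgeR adjusted p = 1.82e-08), B2m by 2.44 ± 0.14 (SE, edgeR adjusted p = 4.43e-07) and Cxcl12, the ligand of CXCR4, by 2.39 ± 0.13 (SE, edgeR adjusted p = 2.71e-07). With library size alone S1pr1, B2m and Cxcl12 were not called, at 1.56, 1.57 and 1.53. Il12a, a subunit of interleukin 12, had 127 and 109 reads in the E18 samples, 12 and 20 in those of P14, 3 and 0 in those of P28, and 0 and 1 in the adults.

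Of 11 genes of early T-cell precursors, 3 were higher and 5 lower in the adult than at E18, beside 16.8% and 23.8% of all genes, with a median of -0.45 against -0.11 (2 higher, 5 lower and -1.30 with library size alone). Rag1, which cuts antigen receptor genes in developing lymphocytes, had 204 and 296 reads in the E18 samples, 79 and 54 in those of P14, 1 and 0 in those of P28, and 0 and 1 in the adults, so that each sample from P28 on held 0 or 1 read. Cd34, a marker of blood progenitors and endothelium, fell by 3.17 ± 0.28 (SE, edgeR adjusted p = 5.28e-06) on the log2 scale. Il2ra, the alpha chain of the interleukin 2 receptor, had 3 and 2 reads in the E18 samples, 88 and 93 in those of P14, 205 and 254 in those of P28, and 175 and 180 in the adults, and Hes1, a target of Notch, fell by 1.62 ± 0.13 (SE, edgeR adjusted p = 1.42e-05) from P14 to the adult.

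**Figure D4:**
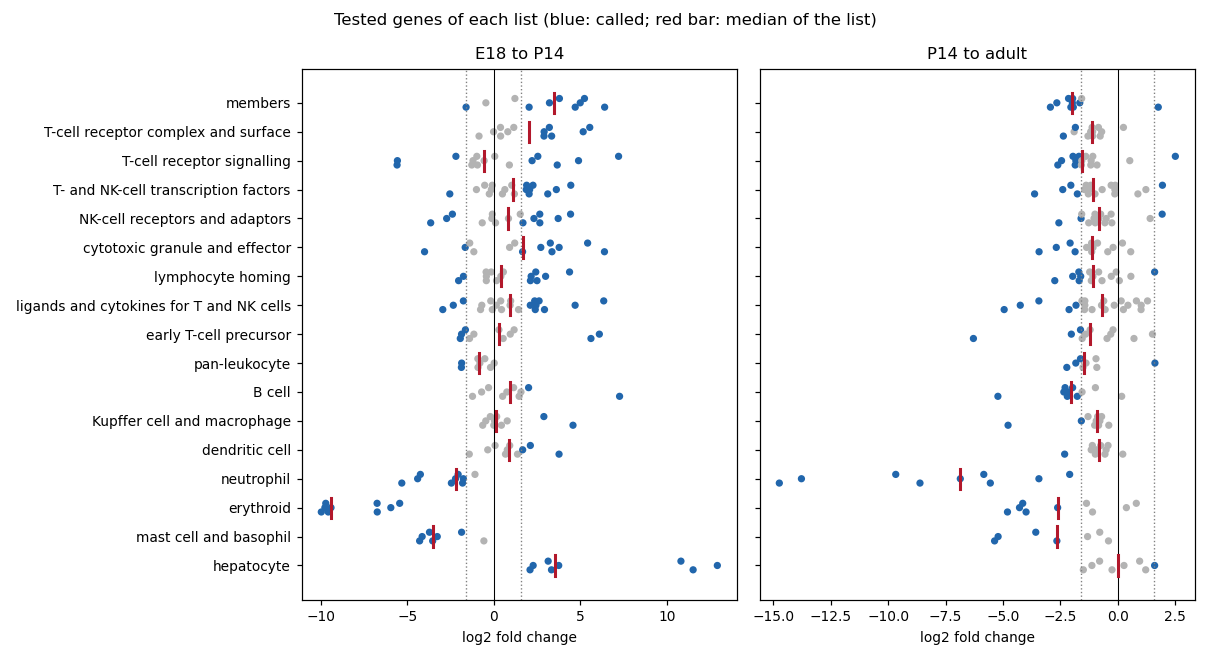
Log2 fold changes (horizontal axis) of every tested gene in the members and 16 further lists, from E18 to P14 on the left and from P14 to the adult on the right; blue points were called, grey points were not, red bars are list medians and dotted lines mark 3-fold. The members' median is at 3.50 on the left and -1.97 on the right; the outermost neutrophil points on the right, Ngp and Camp, rest on 0 adult reads and their position depends on the prior count.

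Other blood cells of the liver changed over the same stages. The summed RPKM of 9 erythroid genes was 9484 to 12005 at E18, 49.95 to 59.0 at P14 and 40.3 to 45.1 in the adult, and all 9 fell from E18 to P14. For 9 neutrophil genes the sums were 2016 to 2476, 226 to 243 and 2.11 to 5.76, with Ngp and Camp at 0 in both adult samples. For 8 mast cell and basophil genes they were 20.4 to 27.1, 1.09 to 1.48 and 0.227 to 0.359. Like Lck and Nkg7, these lists were highest at E18, and the part of such cells in the levels of Lck and Nkg7 was not tested.

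The summed RPKM of the 8 pan-leukocyte genes was 134 to 172 at E18, 38.3 to 39.4 at P14 and 19.4 to 21.5 in the adult. That of the 10 members was 12.4 to 13.7, 12.5 to 13.1 and 4.42 to 5.51 at these stages. On this scale, which has no TMM factor, the E18 and P14 sums of the members overlapped. With TMM, 8 of the 10 genes were called between these stages. Lck and Nkg7, at 6.15 and 5.19, made up most of the E18 sum. None of the list sums was scaled by TMM, so E18 sums would stand differently against later ones on that scale. The sums of the B-cell genes were 6.72 to 11.3, 7.04 to 7.54 and 1.51 to 1.64. Their late marker Ms4a1 (CD20) had 0 and 1 reads in the E18 samples, 71 and 74 in those of P14, 52 and 23 in those of P28, and 14 and 20 in the adults, a P14 peak, whereas Igll1, of B-cell precursors, had 140 and 255 reads in the E18 samples, 84 and 87 in those of P14, 3 and 2 in those of P28, and 0 and 3 in the adults. The sums of the Kupffer cell genes were 287 to 394, 267 to 297 and 147 to 153, and those of the dendritic cell genes 15.3 to 18.1, 8.60 to 8.83 and 4.07 to 4.84. By these sums neither list had its maximum in the adult. Among the genes of both lists, Cd209a alone had its highest mean RPKM there (0.201). The part of these cells in the level of Cd4 was not tested.

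The genes outside all lists whose log2 CPM was most like the mean of the members' standardised log2 CPM over the 8 samples were C530028O21Rik (Pearson r = 0.996), Ano5 (0.991), Pnrc1 (0.991), Cd209g (0.988) and Leprotl1 (0.987), and 121 of 16880 genes had r over 0.95. The 8 points share their libraries and fall into 4 pairs of duplicates, so no p is given. Cd209g, a C-type lectin gene, had 17 and 13 reads in the E18 samples, 416 and 352 in those of P14, 74 and 72 in those of P28, and 15 and 20 in the adults. Among the members, Gzma was closest to their mean (0.970), followed by Cd3g (0.955), Cd8a (0.952) and Klrd1 (0.949), which each form a part of that mean. Cd4 (0.290), Nkg7 (0.0533) and Lck (-0.172) did not follow it.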

How the data were processed

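RNA of 8 whole mouse livers (4 stages, 2 samples each) was sequenced as poly(A)-selected libraries. The authors aligned the read pairs and deposited raw counts per gene, with no normalization, for 22059 gene symbols; the submitters' processing notes name the build mm9, and the aligner, the use of strand and the counting of mates are not given in the sources used here. The labels name Trizol and the Methods name an RNeasy kit for the RNA. The RPKM were computed by the authors as reads per kilobase and per 1000000 mapped reads. Stage and replicate were taken from the sample titles.

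Counts were filtered with filterByExpr and scaled by TMM in edgeR (version 4.0.16), which left 17081 genes, and 1 model with 4 stages was fitted to all 8 samples with glmQLFit; stages were compared with glmQLFTest and Benjamini-Hochberg adjustment over all tested genes. Calls needed an adjusted p below 0.1 and over 3-fold, where the false discovery rate is the one the study used with DESeq, 3-fold is a fold it used elsewhere, and their pairing was chosen here. The standard error is the log2 fold change divided by the square root of F. The fit was tested on simulated data. Counting intervals are exact 95% intervals and cover counting error only. Libraries held 68154675 to 106055723 counted reads, and duplicates differed by far more than sampling noise (chi-square per degree of freedom 39.9 to 79.2).

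The members and all lists were chosen with earlier results of these data known. By rule, the genes named beyond the members were the 2 with the highest mean RPKM and the 2 with the largest called change from E18 to the adult in each list, of which those of other cell types are mostly left out and 1 transcription factor is not reported here; genes named within a count, and Ptprc, Cd247, Lat, Zap70, Tbx21 and Gzmb, were named after their values were seen. DESeq2 (version 1.42.0), limma (version 3.58.1) on log2(RPKM + 0.1) and log2(RPKM + 0.01), other scalings, filters and thresholds, the replicate block and each sample left out were the alternatives; the comparison of P14 with the adult, changes relative to the median of all genes and the ratio without Cd3d were added after seeing the data. Tables and figures were made in Python 3.11.15 (scipy 1.17.1, pandas 2.3.3, matplotlib 3.10.9, numpy 2.4.6) and models in R 4.3.3. Gene positions came from GENCODE on GRCm38 and promoters from RefSeq (GRCm38.p6). Protein sequences were not analysed here.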

Additional observations from a re-analysis of the deposited data

How the results depend on the processing

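Depth limits the members with few reads: Cd8a, Cd3e, Klrd1 and Ncr1 had 1 to 11 reads per E18 sample, so their fold changes from E18 rest on few molecules, while the directions of all 10 genes in all 5 comparisons were the same under every alternative run. With 2 samples per stage and no litter or date in the labels, batch and stage cannot be told apart.

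With at least 10 counts in every sample only 6 of the 10 genes were tested, and of these 2 were higher from E18 to the adult and 3 from E18 to P14, 0 were lower from P28 to the adult and 5 from P14 to the adult. With limma on log2(RPKM + 0.1), which adds a pseudocount and drops TMM together (median of all genes from E18 to the adult -0.78, against -0.11), 1 gene was higher from E18 to the adult, 0 were lower from P28 to the adult and 5 from P14 to the adult; with log2(RPKM + 0.01), 3 were higher from E18 to the adult and 0 lower from P28 to the adult. Relative to the median of all genes, 0 were lower from E18 to P14. With a 2-fold threshold 4 genes were lower from P14 to P28, 4 lower and 1 higher from P28 to the adult; with no fold threshold 8 were lower in the former and 5 lower and 1 higher in the latter. Library size alone gave 1 higher from P28 to the adult. The causes of these shifts in count were not tested, except where fewer genes were tested. DESeq2, median-ratio scaling, no filter and only the 2 stages compared left every count of called members within 1.5 times its value above.

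Leaving out each sample in turn gave 7 higher and 0 to 1 lower from E18 to P14, 6 higher and 2 lower from E18 to the adult, 0 higher and 0 to 3 lower from P14 to P28, 0 to 1 higher and 0 to 2 lower from P28 to the adult, and 0 to 1 higher and 7 to 9 lower from P14 to the adult. The ratio of CD3 genes to NK-cell receptors was 7.90 at E18, 2.08 at P14 and 2.29 at P28 with summed counts, and 2.19, 1.25 and 1.51 without Cd3d. Without Cd3d the E18 and P28 samples overlapped.

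Same-numbered samples did not deviate together (mean r -0.0305 over 6 pairs of stages, from -0.107 to 0.0841), so the replicate numbers name samples only. With the replicate number as a block, the counts of called members were 7 higher and 1 lower from E18 to P14, 7 and 2 from E18 to the adult, 0 and 1 in both later steps, and 1 and 9 from P14 to the adult. Over single genes, 953 fitted values kept their call, 45 were called only by the alternative, under its own thresholds, and 31 only in the fit reported.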
